A study of Mus musculus with 17 samples.

Results

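The replication fork machinery was followed here through 35 genes, taken from a list of polymerase, clamp, clamp loader, helicase cofactor, fork protection and chromatin assembly genes, out of 31517 genes in the transcript counts. All 35 were found in the counts, and all 35 passed the filter on low counts in every comparison. RNA came from whole cerebella of C57BL/6 mice at postnatal day 3, with the meninges removed, and all mice carried Math1-Cre, a Cre recombinase expressed in granule neuron progenitors. In the first background, 5 libraries came from mice with Atr-loxP/loxP, Bax-loxP/loxP and Bak--/- alleles, and 4 controls carried the Bax-loxP/loxP and Bak--/- alleles without floxed Atr. In the second, 5 libraries came from mice with Atr-loxP/loxP and p53-loxP/loxP, and 3 controls had the p53-loxP/loxP alleles alone. All groups thus lacked either Bax and Bak, effectors of mitochondrial apoptosis, or p53, a transcription factor that answers DNA damage, and no group was wild type. The Cre acts in granule neuron progenitors, so other cells of the tissue keep the floxed genes, while Bak is null in every cell. The genotypes are called Atr-deleted and control below, and the backgrounds Bax/Bak and p53.

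At a replication fork the CMG helicase, built from Cdc45, the GINS complex and the MCM ring, unwinds DNA, RPA coats the exposed single strands, and primase with polymerase alpha starts each new strand. The RFC clamp loader then places the PCNA ring, which holds polymerase delta and polymerase epsilon on the template, while Fen1 and Lig1 join the Okazaki fragments and chromatin assembly factors package the new DNA. Atr encodes a kinase that responds to exposed single-stranded DNA at stalled forks and restrains new replication. In the cerebellum of newborn mice, granule neuron progenitors are the main dividing cells.

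Totals ran from 42987953 to 100659645 estimated counts over 16 libraries. One Atr-deleted library of the p53 background held only 13601 counts; it is left out of all values unless named. Levels are in CPM, counts scaled to the same library size (TMM). Atr stood at 35.8 to 43.5 CPM in the Atr-deleted and 38.4 to 48.0 CPM in the control libraries of the Bax/Bak background, and at 33.7 to 40.2 and 36.3 to 38.2 CPM in the p53 background. These ranges overlap within each background; counts over the whole gene do not check the deleted exons. Bak1 was at 0.237 to 0.607 CPM in the Bax/Bak libraries and at 32.5 to 41.6 CPM in the p53 libraries, and Trp53 at 62.2 to 76.8 against 29.3 to 45.5 CPM. Whether samples came from separate mice or litters is given no further in the labels, so every p-value rests on sample spread that may be technical. Titles carry a number series of unstated meaning. All 5 Atr-deleted Bax/Bak libraries share 1 series and their controls carry 2 others, so series and genotype cannot be told apart there; with the controls of either series alone, 34 of the 35 genes were again called lower. In RNA of a whole tissue, fewer cells of a type and less RNA per cell cannot be told apart.

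In the Bax/Bak background, Atr-deleted cerebella held less RNA of nearly the whole replication fork. Of the 35 genes, 34 were lower and 0 were higher, by edgeR's quasi-likelihood F-test at an adjusted p under 0.05 (Benjamini-Hochberg, over all genes). Across all 17425 genes tested, 22% were called lower and 22.5% higher. The median log2 fold change of the 35 genes was -0.68, against 0.04 over all genes. The 34 genes ranged from -2.21 for Pclaf to -0.33 for Timeless, which left 21.6% to 79.7% of the control level. Every one of these 34 had Atr-deleted libraries that all lay below all controls, as did 21.1% of all genes tested. Wdhd1 was the exception, at 0.38 with no call. The members held 0.184% to 0.193% of all counts in the control libraries and 0.107% to 0.125% in the Atr-deleted libraries.

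**Figure D1:**
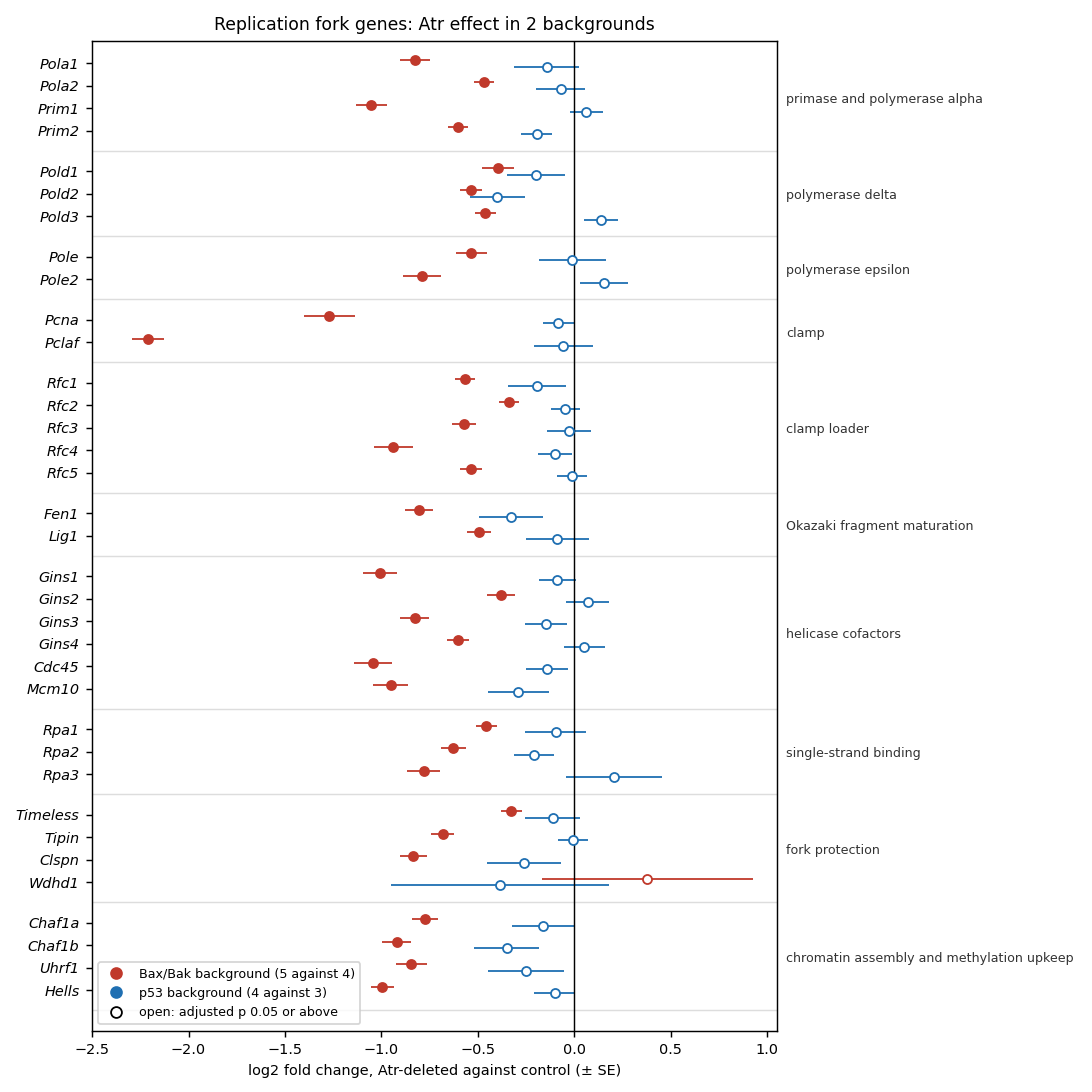
Log2 fold change of each of the 35 genes in Atr-deleted against control libraries, with its standard error, grouped by role, for the Bax/Bak background (red) and the p53 background (blue). Filled points passed the threshold: 34 of the red points and 0 of the blue ones do, and the red point farthest to the left is Pclaf at -2.21.

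Markers of proliferation moved with the fork genes. All 10 proliferation markers were lower in the Atr-deleted libraries of the Bax/Bak background, with a median log2 fold change of -0.83. Their summed level was 683 to 848 CPM in the Atr-deleted libraries and 1209 to 1321 CPM in the controls, with none of the 10 at 0. Bub1, a mitotic checkpoint kinase, had the smallest p of the list (-1.11, SE 0.09, edgeR adjusted p = 6.18e-06). Granule progenitor markers fell in 7 of 10 and rose in 2, and their sum was 1682 to 1885 against 2183 to 2668 CPM. Within that list Sfrp1 had the smallest p among those that fell (-1.13, SE 0.07, edgeR adjusted p = 1.03e-06), and Hhip among those that rose (0.66, SE 0.10, edgeR adjusted p = 2.38e-04). The part of cell numbers in the lower fork RNA was not tested.

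The clamp changed most. Pcna (chromosome 2, 132249162 to 132253314, GRCm38, minus strand) encodes the sliding ring, and Pclaf (chromosome 9, 65890237 to 65903266, plus strand) a small protein that binds it. Pclaf stood at 123, 141, 147 and 150 CPM in the controls and at 26.7, 27.4, 29.0, 32.6 and 33.9 CPM in the Atr-deleted libraries. The lowest control was thus far above the highest Atr-deleted library, and the change was -2.21 in log2 (SE 0.08, edgeR adjusted p = 2.18e-07). Pcna was at 172, 213, 239 and 269 CPM in controls against 80.6, 85.1, 86.1, 98.9 and 107 CPM, a change of -1.27 in log2 (SE 0.13, edgeR adjusted p = 6.40e-05). Its controls spread widely, yet none reached down to the Atr-deleted libraries. Of the 31-base words of Pcna transcripts, 23.3% also occur in the pseudogene Pcna-ps2, so reads could be divided between them.

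Primase and polymerase alpha form the complex that lays down RNA-DNA primers, and its 4 genes all fell. Prim1, the catalytic primase subunit (chromosome 10, 128015168 to 128030037, plus strand), was at 43.7, 45.4, 45.6 and 46.6 CPM in controls. In the Atr-deleted libraries it was at 18.9, 19.3, 21.2, 24.0 and 24.7 CPM. That was a change of -1.05 in log2 (SE 0.08, edgeR adjusted p = 5.75e-06), the largest of the complex. Pola2, the second polymerase alpha subunit (chromosome 19, 5940542 to 5964202, minus strand), changed least, from 35.3, 37.3, 39.2 and 39.6 CPM to 25.9, 26.2, 26.5, 28 and 28.6 CPM (-0.47, SE 0.05, edgeR adjusted p = 4.91e-05). Pola1, the catalytic subunit of polymerase alpha, and Prim2, the large primase subunit, lay between them at -0.82 and -0.60.

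The 3 genes of polymerase delta, which copies the lagging strand, fell by less than the median of the 35, with values from -0.40 to -0.54. Pold2, an accessory subunit (chromosome 11, 5872180 to 5878292, minus strand), went from 32.9, 34.6, 36.5 and 37.4 CPM to 22.8, 23.1, 23.8, 24.7 and 26.3 CPM (-0.54, SE 0.06, edgeR adjusted p = 4.68e-05). The catalytic gene Pold1 (chromosome 7, 44532746 to 44548849, minus strand) showed the smallest change, from 31.2, 32.5, 36.6 and 37.0 CPM to 22.2, 24.8, 25.9, 27.2 and 29.0 CPM (-0.40, SE 0.08, edgeR adjusted p = 0.00243). Here the groups were separated by a narrow gap. Pold3, a subunit that links the enzyme to PCNA (chromosome 7, 100082111 to 100121565, minus strand), was at 47.3, 47.8, 49.4 and 50.4 CPM in controls and 32.1, 33.7, 34.4, 36.4 and 38.1 CPM in Atr-deleted libraries (-0.46, SE 0.05, edgeR adjusted p = 6.80e-05).

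Polymerase epsilon copies the leading strand. Pole2, its second subunit (chromosome 12, 69201773 to 69228195, minus strand), was at 12, 12.1, 12.4 and 12.9 CPM in controls and at 6.17, 6.39, 6.72, 7.90 and 8.13 CPM in Atr-deleted libraries (-0.79, SE 0.10, edgeR adjusted p = 9.40e-05). The catalytic gene Pole (chromosome 5, 110286306 to 110337474, plus strand) was at 38.9, 39.2, 40.8 and 48.2 CPM against 25.2, 26.3, 29.5, 30.3 and 31.2 CPM (-0.53, SE 0.08, edgeR adjusted p = 3.34e-04). Neither gene had an Atr-deleted library within the range of the controls.

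All 5 genes of the RFC clamp loader fell, and Rfc4 fell most. Rfc4 (chromosome 16, 23113943 to 23127737, minus strand), a small subunit, was at 32.3, 32.5, 32.9 and 37.3 CPM in controls and 15.1, 15.6, 16, 19.3 and 21.1 CPM in Atr-deleted libraries (-0.94, SE 0.10, edgeR adjusted p = 4.53e-05). Rfc2 (chromosome 5, 134581366 to 134601805, plus strand), another small subunit, fell least, from 64.4, 66.7, 67.7 and 70.9 CPM to 49.3, 50.3, 52.8, 54.3 and 56.9 CPM (-0.34, SE 0.05, edgeR adjusted p = 2.89e-04). Summed over protein-coding transcripts alone, which held less of its counts than other transcripts did, the change was -0.60. Rfc1, the large subunit, Rfc3 and Rfc5 changed by -0.57, -0.57 and -0.53.

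Fen1 cuts the flap at the end of an Okazaki fragment and Lig1 seals the remaining nick. Fen1 (chromosome 19, 10199132 to 10204169, minus strand) fell from 46.5, 50.0, 50.7 and 50.7 CPM to 24.9, 25.8, 27.6, 29.5 and 32.0 CPM (-0.81, SE 0.07, edgeR adjusted p = 1.37e-05). Lig1 (chromosome 7, 13277283 to 13311433, plus strand) fell from 87.3, 89.9, 90.8 and 95.2 CPM to 56.6, 61.3, 61.8, 68.3 and 70.6 CPM (-0.49, SE 0.06, edgeR adjusted p = 1.02e-04). Groups did not overlap for either gene.

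All 6 cofactors that turn the MCM ring into a working helicase fell. Cdc45, Gins1, Mcm10 and Gins3 fell further than the median of the 35 genes, and Gins4 and Gins2 fell less. Cdc45 (chromosome 16, 18780447 to 18811987, minus strand) was at 24.5, 26.0, 28.5 and 29.2 CPM in controls and 11.3, 11.6, 12.3, 14.7 and 14.9 CPM in Atr-deleted libraries (-1.04, SE 0.10, edgeR adjusted p = 1.59e-05). Gins1 (chromosome 2, 150905400 to 150931280, plus strand), a GINS subunit, was at 16.5, 17.5, 17.6 and 17.7 CPM against 7.49, 7.82, 8.14, 9.37 and 9.76 CPM (-1.01, SE 0.09, edgeR adjusted p = 1.24e-05). Mcm10, a factor needed to start unwinding, changed by -0.95, and the subunits Gins3 and Gins4 by -0.83 and -0.60. Gins2 (chromosome 8, 120578633 to 120589304, minus strand) fell least in this group, from 49.3, 49.6, 53 and 53.9 CPM to 35.4, 36.1, 38.0, 40.0 and 45.6 CPM (-0.38, SE 0.07, edgeR adjusted p = 0.00149). Summed over protein-coding transcripts alone, its change was -1.08. Of its 31-base words 66.2% recur in Gse1, so its counts are uncertain.

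RPA is the trimer that coats single-stranded DNA and recruits Atr. Rpa3, the smallest subunit (chromosome 6, 8255936 to 8259173, minus strand), was at 21.7, 21.8, 22.6 and 25.6 CPM in controls and 11.7, 12.4, 13.1, 13.3 and 15.5 CPM in Atr-deleted libraries (-0.78, SE 0.09, edgeR adjusted p = 5.02e-05). Rpa1, the largest subunit (chromosome 11, 75298166 to 75348324, minus strand), changed less, from 118, 118, 122 and 124 CPM to 79.0, 83.2, 86.4, 91.1 and 94.8 CPM (-0.46, SE 0.05, edgeR adjusted p = 6.59e-05). Rpa2, the remaining subunit, changed by -0.63, and no Atr-deleted library of Rpa1 or Rpa3 reached its controls.

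Of the 4 fork protection genes 3 were lower and 1, Wdhd1, was not called. Clspn, the adaptor through which Atr activates the checkpoint kinase Chk1 (chromosome 4, 126556935 to 126593903, plus strand), was at 39.9, 41.0, 41.3 and 42.5 CPM in controls and 20.4, 21.6, 21.7, 23.9 and 26.6 CPM in Atr-deleted libraries (-0.83, SE 0.07, edgeR adjusted p = 1.17e-05). Tipin, partner of Timeless at the fork (chromosome 9, 64281581 to 64305424, plus strand), was at 48.8, 51.2, 53.2 and 55.3 CPM against 30.1, 31, 31.1, 32.8 and 35.5 CPM (-0.68, SE 0.06, edgeR adjusted p = 1.12e-05). Timeless (chromosome 10, 128232065 to 128252941, plus strand) fell least of the 34 genes, from 40.2, 40.3, 41.9 and 47.1 CPM to 32.1, 32.6, 33.3, 34.1 and 34.9 CPM (-0.33, SE 0.05, edgeR adjusted p = 5.89e-04). Clspn, Tipin and Timeless were all lower in every Atr-deleted library than in any control. Summed over protein-coding transcripts alone, Timeless changed by -0.50, and Rpa1 changed least of the 34 genes, at -0.48.

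Wdhd1, the homologue of the yeast protein Ctf4 that tethers polymerase alpha to the helicase (chromosome 14, 47240944 to 47276857, minus strand), was at 2.83, 5.71, 7.74 and 8.87 CPM in controls and 3.81, 4.69, 5.39, 7.07 and 19.4 CPM in Atr-deleted libraries. These groups overlapped, and the log2 fold change of 0.38 had an SE of 0.55 (edgeR adjusted p = 0.607). The sequencing lanes of a library did not match for this gene: in replicate 3 of the Atr-deleted libraries it had 29 counts in the first lane and 382 in the second. Lane ratios of the other 34 genes reached at most 0.21 in log2 size, with Gins2 the highest. Across the alternatives the value for Wdhd1 ran from -0.28 to 0.63, so no direction can be given for it.

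Genes that package and mark the new DNA all fell. Hells, a chromatin remodeller needed for DNA methylation (chromosome 19, 38930915 to 38971051, plus strand), was at 69.7, 71.2, 75.4 and 77.9 CPM in controls and 32.8, 35.5, 35.8, 37.7 and 40.5 CPM in Atr-deleted libraries (-0.996, SE 0.06, edgeR adjusted p = 1.41e-06). Chaf1a, the large subunit of chromatin assembly factor 1 (chromosome 17, 56040439 to 56072289, plus strand), changed least of the 4, from 44.1, 44.9, 45.1 and 46.0 CPM to 23.0, 24.1, 26.3, 28.1 and 28.9 CPM (-0.77, SE 0.07, edgeR adjusted p = 1.24e-05). Chaf1b, its partner subunit, changed by -0.92, and Uhrf1, which brings the maintenance methyltransferase to newly copied DNA, by -0.84. Sequence overlap makes 2 of them uncertain: of the 31-base words, 47.1% in Chaf1a recur elsewhere, mostly in Ubxn6, and 24.2% in Uhrf1, mostly in Gm5648.

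**Figure D2:**
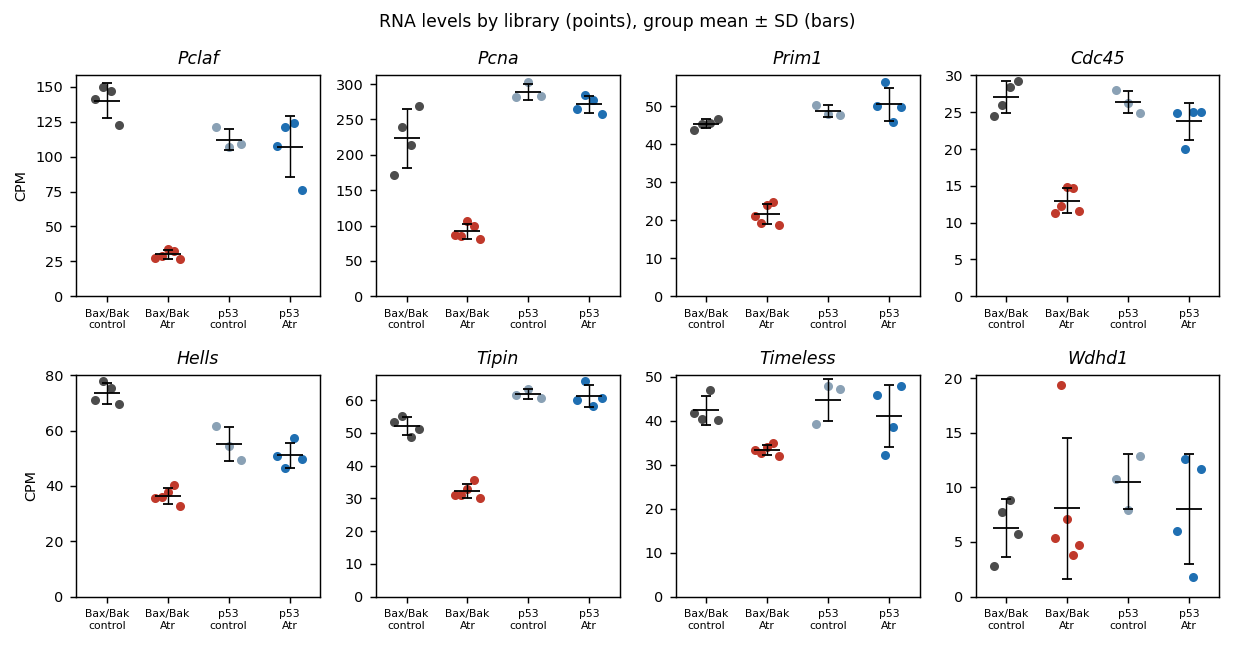
CPM of 8 of the genes in each library (points), with the group mean and SD (bars), in the control and Atr-deleted groups of both backgrounds. Pclaf, Pcna, Prim1, Cdc45, Hells, Tipin and Timeless are lower in all 5 Atr-deleted libraries of the Bax/Bak background, whereas the groups of the p53 background overlap, and Wdhd1 spreads from 1.80 to 19.4 CPM.

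Because the genes fell together, their promoters were read for binding words of E2F, the transcription factor family known for driving S-phase genes. Promoter windows of 250 bases before the start were found for 28 of the 35 genes in RefSeq (GRCm38.p6). The words TTTCCCGC, TTTGGCGC, TTTCGCGC and TTTGCCGC, on either strand, were present in 4 of the 28 windows, or 14.3%. Across the windows of 27025 genes the share was 1.92%, and across those of the genes tested 3.07%. It was 5.19% for genes called lower, 2.41% for genes called higher and 2.41% for genes not called in the Bax/Bak background. These shares describe the letters in a window and are no sites of binding. The 4 windows are printed 5′ to 3′ in the direction of the gene with the word in capitals, and that of Pclaf, which changed most, is added as a window without one.
Gins3, chr8:95633309-95633558, plus strand: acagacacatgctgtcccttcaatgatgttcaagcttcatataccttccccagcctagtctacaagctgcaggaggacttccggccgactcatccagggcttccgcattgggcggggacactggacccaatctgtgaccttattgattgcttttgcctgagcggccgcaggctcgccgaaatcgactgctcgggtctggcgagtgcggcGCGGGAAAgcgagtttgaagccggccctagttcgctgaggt
Hells, chr19:38930740-38930989, plus strand: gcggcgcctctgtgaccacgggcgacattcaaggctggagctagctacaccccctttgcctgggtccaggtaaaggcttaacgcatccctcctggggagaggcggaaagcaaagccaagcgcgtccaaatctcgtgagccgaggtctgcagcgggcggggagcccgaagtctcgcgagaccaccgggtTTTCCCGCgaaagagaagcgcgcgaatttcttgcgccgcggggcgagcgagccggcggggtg
Pola1, chrX:93632156-93632405, minus strand: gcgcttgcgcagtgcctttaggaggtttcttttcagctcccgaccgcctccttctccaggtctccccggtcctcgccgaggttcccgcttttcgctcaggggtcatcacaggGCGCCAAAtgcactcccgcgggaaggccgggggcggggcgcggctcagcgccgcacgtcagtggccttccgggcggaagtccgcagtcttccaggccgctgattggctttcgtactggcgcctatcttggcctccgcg
Rfc3, chr5:151651209-151651458, minus strand: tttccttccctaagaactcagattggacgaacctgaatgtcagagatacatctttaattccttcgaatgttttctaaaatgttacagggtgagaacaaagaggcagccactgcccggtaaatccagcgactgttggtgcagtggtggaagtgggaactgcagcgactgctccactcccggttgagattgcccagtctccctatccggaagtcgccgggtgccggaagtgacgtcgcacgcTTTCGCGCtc
Pclaf, chr9:65890073-65890322, plus strand: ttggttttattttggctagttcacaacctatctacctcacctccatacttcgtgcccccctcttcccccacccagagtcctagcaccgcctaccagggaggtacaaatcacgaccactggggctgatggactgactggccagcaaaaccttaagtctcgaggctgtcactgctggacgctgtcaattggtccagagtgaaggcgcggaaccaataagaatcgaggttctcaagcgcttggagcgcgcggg

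The word lay 41 bases before the RefSeq start in Gins3, 62 in Hells, 138 in Pola1 and 10 in Rfc3. GENCODE M21 places the start of the gene 106, 75, 0 and 34 bases farther upstream in these genes, and 86 bases farther upstream in Pclaf. In Gins3, Hells and Rfc3 the word thus lies downstream of the GENCODE start. The RefSeq start used for Timeless, counted among the 28, lies 6001 bases inside the GENCODE gene, and its window held none of the words searched. The 4 genes changed by -0.57 to -0.996 in the Bax/Bak background, with a median of -0.83, and the 24 genes with no such word by -2.21 to 0.38, with a median of -0.78. CCAAT, a word known from cell cycle promoters, was present on either strand in 16 of the 28 windows (57.1%), against 34.5% of all windows and 36.1% of those of tested genes. The word TTTGAA was present in 3 windows (10.7%, against 16.3% of all and 11.1% of tested genes) and GGGCGG in 17 (60.7%, against 33.0% and 55.1%).

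In the p53 background the fork genes showed no called change. Of the 35 genes 0 were called, against 0.0461% of 17361 genes tested, by the same edgeR test. The median log2 fold change was -0.10, and 29 of the 35 values were negative, against 47.5% of all genes. At an unadjusted p under 0.05 there were 2 genes, Pold2 (-0.40, SE 0.14) and Prim2 (-0.19, SE 0.08), with edgeR adjusted p-values of 0.648 and 0.732. That unadjusted share was 6.58% over all genes. DESeq2 and limma-voom also called 0 of the 35 genes.

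Pold2 was at 48.6, 60.6 and 60.8 CPM in the p53 controls and at 36.5, 36.8, 47.4 and 50.1 CPM in the Atr-deleted libraries, so the groups overlapped. Prim2 was at 45.9, 47.1 and 47.6 CPM against 37.5, 41.0, 41.5 and 42.7 CPM, without overlap. Fen1 and Chaf1b were the other genes whose groups did not overlap, making 3 in all, each lower in the Atr-deleted libraries, as were 4.63% of all genes. Without replicate 5 of the Atr-deleted libraries there were 6, with Rfc1, Mcm10 and Clspn added, and without replicate 2 there were 4, with Pcna added. Leaving out a library can only keep or raise such a count. The share over all genes was not computed for these smaller sets, so the rise says nothing particular about the fork genes. Chaf1b was at 35.4, 40.7 and 41.0 CPM in controls against 21.1, 30.7, 34.5 and 35.3 CPM (-0.35, SE 0.17, edgeR adjusted p = 0.773). The missing calls do not show that the levels were equal. For 24 of the 34 genes other than Wdhd1 the 95% interval of the log2 change stayed above -0.5, and the lowest bound was -0.73, for Chaf1b.

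The 8 genes with the smallest p for the difference between backgrounds are given first, so their nearness to the controls here is part of how they were chosen. Pclaf was at 107, 109 and 121 CPM in the p53 controls and at 76.3, 108, 121 and 124 CPM in the Atr-deleted libraries (-0.06, 95% interval -0.40 to 0.29). Pcna was at 282, 283 and 302 CPM against 258, 265, 278 and 285 CPM (-0.08, 95% interval -0.26 to 0.10). Prim1 was at 47.6, 47.9 and 50.4 CPM against 45.9, 49.7, 50.0 and 56.4 CPM (0.06, 95% interval -0.13 to 0.26). Each of these groups overlapped, and for Pclaf a single library, replicate 5, was low. Hells stood at 49.3, 54.5 and 61.7 CPM in controls against 46.6, 49.7, 50.8 and 57.2 CPM. Tipin was at 60.6, 61.6 and 63.4 CPM against 58.2, 60.1, 60.7 and 65.9 CPM, and Cdc45 at 24.9, 26.3 and 28 CPM against 20.03, 24.96, 25.04 and 25.1 CPM. The order of these levels did not separate Atr-deleted from control libraries in any of the 3 genes. Gins1 was at 18.7, 20.6 and 21.0 CPM against 17.1, 19, 19.1 and 19.8 CPM, and Pold3 at 44.4, 46.5 and 52.0 CPM against 49.2, 51.5, 52.3 and 55.5 CPM. Other genes with large falls in the Bax/Bak background had these values in the p53 background: Rfc4 at -0.10 (95% interval -0.29 to 0.09), Mcm10 at -0.29 (95% interval -0.65 to 0.07) and Chaf1b at -0.35 (95% interval -0.73 to 0.03).

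Replicate 2 of the Atr-deleted p53 libraries stood apart. The median of the 35 genes in it was -0.32 in log2 against the control mean, where the other 3 libraries were at -0.04, -0.09 and -0.05. It was the lowest library of its group for 22 genes and the highest for 9. Uhrf1 lay lowest in it, at 70.1 CPM against 116, 133 and 134 CPM in the others, and Rpa3 highest, at 45.5 CPM against 20.4, 22.6 and 26.7 CPM. Its proliferation markers summed to 933 CPM and its granule progenitor markers to 1490 CPM, against 1176 to 1378 CPM and 1897 to 1955 CPM in the other libraries of the group. Without this library the median of the 35 genes was -0.06 and still 0 were called. The part of these markers in the values of the library was not tested. In the shallow library, 23 of 13439 counts fell in the 35 genes, 0.171% (exact Clopper-Pearson 95% interval 0.109% to 0.257%, covering counting error only), and 14 genes had a count.

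**Figure D3:**
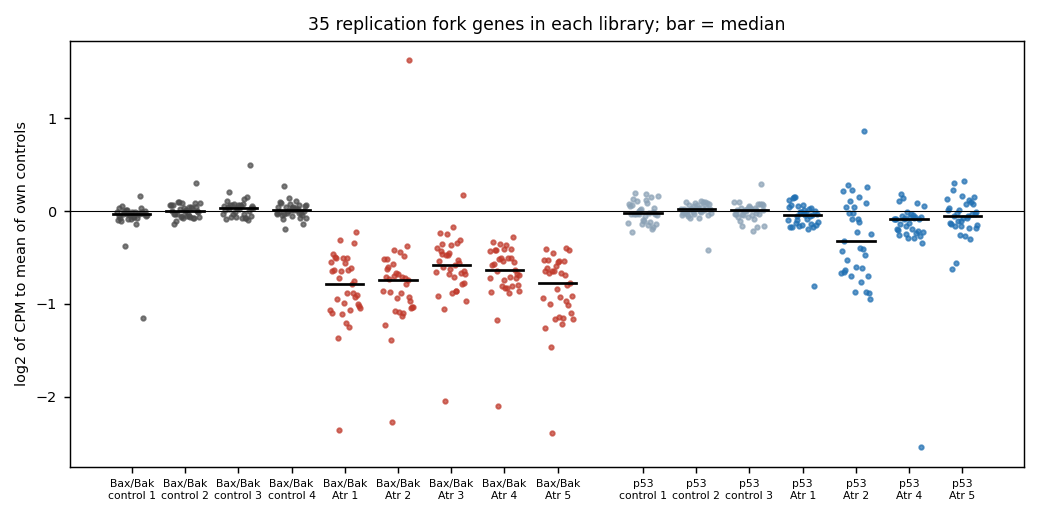
Log2 ratio of each of the 35 genes to the mean of its own controls in each of the 16 libraries, with the median as a bar. The medians of the 5 Atr-deleted Bax/Bak libraries sit between -0.79 and -0.58, and those of the Atr-deleted p53 libraries between -0.32 and -0.04, with replicate 2 the lowest and the most spread.

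The difference between the backgrounds was tested itself, as the Atr effect in the Bax/Bak background minus that in the p53 background. It was called for 24 of the 35 genes, all in the direction of a stronger fall in the Bax/Bak background, against 8.05% of 18189 genes called in that direction. The median difference was -0.58. Pclaf had the largest, -2.16 (SE 0.18, edgeR adjusted p = 3.26e-06), followed in size by Pcna at -1.19 (SE 0.16, edgeR adjusted p = 1.87e-04) and Prim1 at -1.12 (SE 0.12, edgeR adjusted p = 3.28e-05). Hells, Gins1 and Cdc45 differed by -0.90, -0.93 and -0.91, Tipin by -0.68 and Pold3 by -0.61. Of the proliferation markers 9 of 10 were called in the same direction, so the fork genes and the dividing-cell markers moved together in this contrast too. Their part in it was not tested.

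The difference was not called for 11 genes, Pold1, Pold2, Pole, Rfc1, Fen1, Lig1, Rpa1, Timeless, Clspn, Wdhd1 and Uhrf1. For Pold2 it was -0.14 (95% interval -0.46 to 0.17) and for Timeless -0.22 (95% interval -0.54 to 0.09). Clspn missed the threshold at -0.58 (SE 0.20, edgeR adjusted p = 0.0622), and so did Uhrf1 at -0.60 (SE 0.22, edgeR adjusted p = 0.0699). Without replicate 2 of the Atr-deleted p53 libraries 31 of the 35 genes were called, and without replicate 3 of the p53 controls 17. Calls over all genes in the same direction moved likewise, to 1957 and 769 genes, against 1464 with no library left out.

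Starting levels differed between the control groups for some genes. Of the 35 genes, 9 were higher and 1 was lower in the p53 controls than in the Bax/Bak controls, against 9.32% and 8.71% of all genes. Pold2 was 0.68 higher in log2 (SE 0.11, edgeR adjusted p = 8.89e-04), at 48.6 to 60.8 CPM against 32.9 to 37.4 CPM. Pcna was 0.37 higher (SE 0.12, edgeR adjusted p = 0.0402). Prim2, Rfc2, Rfc3, Rfc5, Gins4, Rpa2 and Tipin were higher too, by 0.20 to 0.39, and Hells was lower by -0.42 (SE 0.09, edgeR adjusted p = 0.00531). The count of 10 fell to between 4 and 6 without any one of 9 libraries: each p53 control, replicates 1, 2 and 3 of the Bax/Bak controls, and replicates 1, 2 and 5 of the Atr-deleted Bax/Bak libraries. It was 6 with no filter on low counts. The libraries of each background come from a table of their own, so background and table cannot be told apart.

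Partner genes fell by different amounts in many, though not all, of the pairs compared. Ratios of counts within a library, which need no scaling, were compared for 24 pairs, with two-sided exact permutation tests adjusted by Benjamini-Hochberg over the pairs. In the Bax/Bak background 16 of 24 ratios changed past the threshold, and the smallest p that 5 against 4 libraries allow is 0.00794. The share among pairs of other genes was not computed, so this count is not shown to be particular to partners. Pclaf fell further than Pcna: the mean log2 ratio of Pclaf to Pcna was -1.61 ± 0.04 (SD, n = 5) in Atr-deleted libraries and -0.66 ± 0.36 (n = 4) in controls, a difference of -0.96 (exact permutation p = 0.00794, adjusted p = 0.0190). Prim1 fell further than Prim2, with a difference of 0.45 in the ratio of Prim2 to Prim1 (exact permutation p = 0.00794, adjusted p = 0.0190). Clspn fell further than Timeless, by -0.52, and Rfc4 further than Rfc2, by 0.61 in the ratio of Rfc2 to Rfc4, each with the same exact permutation p. Over protein-coding transcripts alone these genes lay closer together. Clspn changed by -0.93 and Timeless by -0.50, and Rfc4 by -1.04 and Rfc2 by -0.60. The ratio of Gins2 to Gins1 rose by 0.63 over all transcripts, but it was -0.0025 over protein-coding transcripts alone (adjusted exact permutation p = 0.992). Without replicate 5 of the Atr-deleted libraries 0 ratios passed: 4 against 4 libraries allow no p below 0.0286, 14 pairs must reach that p for any to pass, and 13 did. The differences themselves moved by a median of 0.02 and kept their sign in all 24 pairs, and without any other single library 11 to 15 ratios passed. The ratio of Wdhd1 to Timeless differed by 0.55 with an exact permutation p of 0.429.

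Cdc45 and Gins1, which sit in the same helicase, did not differ in their fall past the threshold: their log2 ratio was 0.61 ± 0.04 (SD, n = 5) in Atr-deleted libraries and 0.64 ± 0.08 (n = 4) in controls (exact permutation p = 0.405). In the p53 background 0 of 24 ratios passed, where 4 against 3 libraries allow no p below 0.0286. At that unadjusted p were 2 ratios, Lig1 to Fen1 (0.24) and Chaf1b to Chaf1a (-0.19), with an adjusted exact permutation p of 0.343. Pclaf to Pcna was -1.36 ± 0.27 (SD, n = 4) against -1.37 ± 0.14 (n = 3) there.

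**Figure D4:**
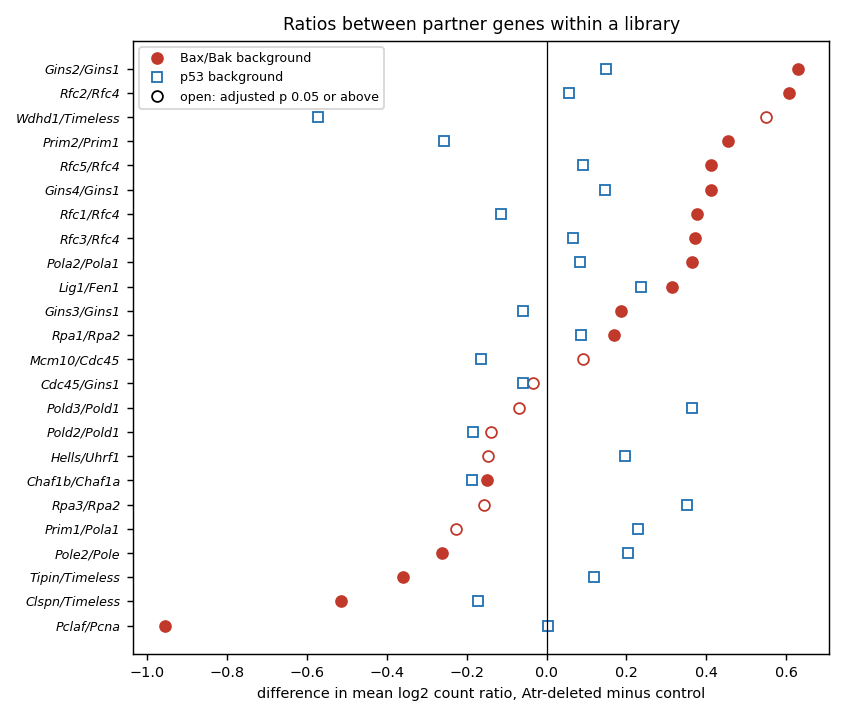
Difference between Atr-deleted and control libraries in the mean log2 count ratio of 24 partner pairs, in the Bax/Bak background (circles, filled where the adjusted exact permutation p is under 0.05) and the p53 background (squares). Pclaf/Pcna lies farthest to the left at -0.96 and Gins2/Gins1 farthest to the right at 0.63, and 16 circles are filled.

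In the Bax/Bak background, transcripts not annotated as protein-coding had higher log2 changes than the coding ones in most of these genes. The same held for most of all genes with both kinds tested. The 35 genes have 79 protein-coding transcripts in the annotation, 73 with a retained intron, 24 processed transcripts and 6 marked for nonsense-mediated decay, and the last 3 kinds are called noncoding here, although those marked for decay have an annotated reading frame. Coding and noncoding sums were tested as separate features, a division chosen after values had been seen. Coding sums were lower for 34 of the 35 genes in the Bax/Bak background, against 27.2% of 16137 features. Noncoding sums, tested for 26 genes, were lower for 3 (Rfc2, Rpa1 and Hells) and higher for 2 (Pclaf and Rfc1), against 4.21% and 16.2% of 7629 features. A missing call does not show that a noncoding sum stayed level. The noncoding change exceeded the coding change in 25 of the 26 genes, with a median gap of 0.98 in log2. It did so in 77.5% of all 7496 genes with both tested and in 87.6% of the 2571 whose coding sum fell, with median gaps of 0.39 and 0.57. Rpa1 was the exception among the 26, with a noncoding change of -0.91 and a coding change of -0.48.

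Pclaf showed opposite changes within the gene. Its coding sum changed by -2.40 in log2 (SE 0.08, edgeR adjusted p = 2.82e-07), while its retained-intron transcripts rose by 1.25 (SE 0.26, edgeR adjusted p = 0.00363), from 1.13 ± 0.30 CPM (SD, n = 4) to 2.80 ± 0.79 CPM (n = 5). The noncoding share of Pclaf counts was 0.615% to 1.27% in controls and 7.14% to 13.6% in Atr-deleted libraries. In the p53 background the share was 3.16% to 6.62% in controls and 1.08% to 10.03% in Atr-deleted libraries, and the noncoding change was -0.80 (SE 0.59, edgeR adjusted p = 0.850). The noncoding level there was 5.56 ± 1.63 CPM (SD, n = 3) in controls and 3.21 ± 3.03 CPM (n = 4) in Atr-deleted libraries. Both means lay above the 2.80 CPM of the Atr-deleted Bax/Bak libraries. The difference of the noncoding changes between backgrounds was 2.01 (SE 0.66) and not called (edgeR adjusted p = 0.0650). For Gins2 the noncoding share was 0.305% to 16.7% in controls and 31.7% to 50.1% in Atr-deleted libraries of the Bax/Bak background, nearly all of it in the retained-intron transcript Gins2-203, and the noncoding change of 2.09 (SE 0.80) was not called (edgeR adjusted p = 0.0724). Rfc2 had most of its counts in noncoding transcripts in every group, 66.3% ± 1.25 (SD, n = 4) in the Bax/Bak controls.

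**Figure D5:**
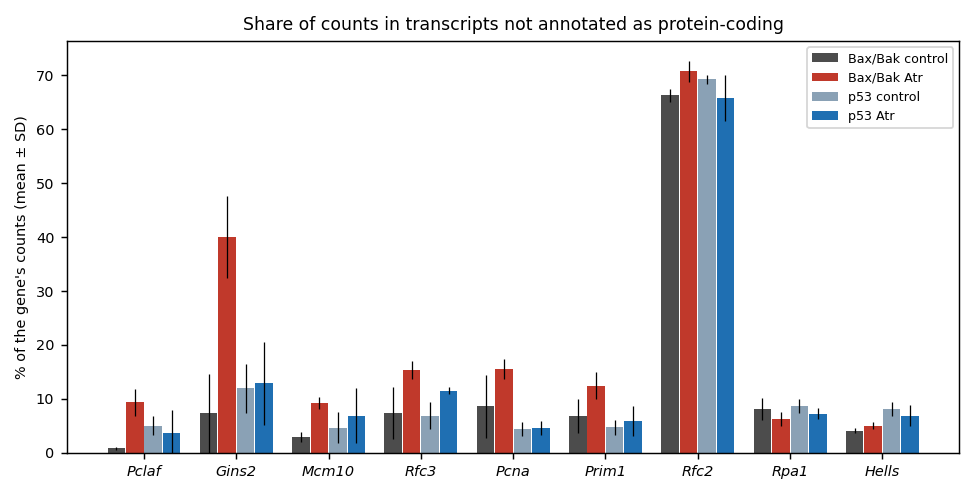
Mean percentage of a gene's counts in transcripts not annotated as protein-coding, with SD, in the 4 groups, for 9 genes picked after their values were seen (Pclaf, Rfc2, Rpa1 and Hells, which were called, and 5 others). Gins2 reaches 40.0% in the Atr-deleted Bax/Bak libraries against 7.32% in their controls, Pclaf 9.37% against 0.826%, and Rfc2 lies highest in all groups. Gins2 counts are uncertain, since much of its sequence recurs in Gse1.

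Other genes that work at the fork behaved like the 35. Of 30 further fork genes, 27 were lower and 0 higher in the Bax/Bak background, with a median of -0.50. Dtl, which targets proteins for destruction on PCNA-loaded DNA, had the smallest p (-1.05, SE 0.07, edgeR adjusted p = 3.62e-06). The 6 genes of the MCM ring changed by -0.45 to -0.90. The exceptions were Pold4, Recql4 and Tonsl, at 0.12, -0.24 and -0.10. In the p53 background 0 of the 30 were called, and the difference between backgrounds was called for 19.

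Lists outside the core fork are given beside the share of all genes, of which 22% were lower and 22.5% higher. Of 14 genes for lesion bypass and fork remodelling, 4 were lower and 3 higher, near that share, with a median of -0.04. Polk, a bypass polymerase, rose by 1.18 (SE 0.08, edgeR adjusted p = 2.29e-06), and Rad18, the ligase that marks PCNA for bypass, changed by -0.71 (SE 0.07, edgeR adjusted p = 3.41e-05). Mitochondrial DNA replication genes were lower in 4 of 9 and higher in 2, among them Tfam, the packaging factor of mitochondrial DNA (-0.36, SE 0.05, edgeR adjusted p = 2.59e-04), and Top1mt, the mitochondrial topoisomerase (0.40, SE 0.08, edgeR adjusted p = 0.00195). Base excision genes were lower in 4 of 7 and higher in 0, with Ung, which removes uracil from DNA, changed by -0.85 (SE 0.09, edgeR adjusted p = 3.54e-05). None of these lists had a called gene in the p53 background.

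Markers of other cells differed by list in the Bax/Bak background, where 22.5% of all genes were higher and 22% lower. Of 10 markers each, 9 were higher for astrocytes and Bergmann glia, 8 for the oligodendrocyte lineage, 8 for microglia and 9 for Purkinje cells, and 7 of 8 were higher for inhibitory interneurons. The astrocyte and oligodendrocyte lists had 1 lower gene each. Endothelial cells and pericytes had 3 of 10 higher and erythroid cells 1 of 7, with none lower, and no marker of meninges or choroid plexus was called. Granule neuron markers were lower in 6 of 10 and higher in 0, with sums of 2398 to 2848 against 3247 to 4092 CPM.

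Besides granule neurons, summed levels in Atr-deleted and control libraries of this background did not overlap for 4 of these lists. They were 5314 to 6716 against 4019 to 4516 CPM for astrocytes and Bergmann glia, 3012 to 4252 against 2394 to 2785 CPM for Purkinje cells, 580 to 745 against 423 to 532 CPM for inhibitory interneurons, and 149 to 186 against 99 to 137 CPM for microglia. Sums overlapped for the oligodendrocyte lineage (1362 to 2848 against 804 to 1369 CPM), endothelial cells and pericytes (677 to 776 against 538 to 717 CPM) and erythroid cells (349 to 502 against 283 to 783 CPM). Meninges markers summed to 1529, 1224, 540 and 523 CPM in control replicates 1 to 4 and to 732 to 890 CPM in the Atr-deleted libraries. Choroid plexus markers set single libraries apart, with 3781, 1797, 65 and 65 CPM in control replicates 1 to 4 and 2769, 113, 1132, 34 and 42 CPM in Atr-deleted replicates 1 to 5. For 34 of the 35 fork genes the same groups had no overlap. The fork genes summed to 1824, 1935, 1936 and 1952 CPM in control replicates 1 to 4. In Atr-deleted replicates 1 to 5 they summed to 1042, 1056, 1216, 1180 and 1036 CPM. The part of the tissue's makeup in the fork gene values was not tested.

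Levels per transcript length ranked the genes. Counts divided by annotated transcript length and scaled to 1 total in every library gave 368 for Pcna as the mean of the Bax/Bak controls, the highest of the 35, then 145 for Pclaf, 127 for Rfc2 and 106 for Rpa1. Gins3 stood at 11.4, Pole2 at 16.2, Pole at 16.9, Chaf1a at 18.2 and Pola1 at 18.7, and Wdhd1 was lowest at 3.60. In the Atr-deleted libraries Pcna remained highest at 172 on this length-scaled level, Rfc2 followed at 109, and Pclaf stood at 36.7. These levels cover all transcripts of a gene. For Rfc2, noncoding transcripts held 66.3% of the counts in the Bax/Bak controls and 70.8% in the Atr-deleted libraries. In the p53 background Pcna was at 413 in controls and 373 in Atr-deleted libraries on the same scale.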

How the data were processed

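Poly-A selected RNA of 17 samples was sequenced in 2 lanes with a stranded kit, per the labels' protocols. What the authors deposited is 1 table a background, with estimated counts of each Ensembl transcript in each lane. The submitters' processing notes list the tools kallisto 0.42.4 and edgeR and, with no role given, both mm9 and GRCm38, and whether counting used strand is not given in the sources used here. Estimated counts divide reads among similar transcripts, so genes with shared sequence are uncertain.

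Lanes were added and transcripts summed to genes by GENCODE M21 (GRCm38), which matched 92372 of 94080 transcripts. The rest, 0.746% to 1.01% of a deep library's counts, were left out. One library of 13601 counts with identical lanes was left out of the fits. Sums were rounded and fitted with edgeR 4.0.16 in R 4.3.3 (TMM scaling, default filter by group, robust quasi-likelihood F-test) with the genotype alone, and p-values were adjusted by Benjamini-Hochberg over all genes at 0.05. Each SE was computed as the size of the log2 change over the root of its F. CPM used 1 TMM scaling over 16 libraries. Partner ratios had 0.5 added to each count. The fits were tested on simulated counts. Changes of 1.5-fold were recovered in 83.6% of cases in the Bax/Bak background and in 38.8% in the p53 background. For changes of 2-fold these shares were 97.0% and 86.6%.

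All 35 genes are described. Values of every library are given for the genes of largest and smallest change in each role, the 8 of smallest p for the difference between backgrounds, and Wdhd1. Of the other lists on DNA replication, dividing cells and granule progenitors the member of smallest p in each direction is named; the remaining marker lists are given as counts and sums without names, and other names were chosen after their values were seen. The genes, lists, pairs and tests were chosen with earlier results of these data known. Of 205 listed genes 204 were found. Other settings tried were scaling by upper quartile or by median of ratios, leaving out the filter or asking a mean CPM of 1, limma-voom 3.58.1 or DESeq2 1.42.0 as the test, protein-coding transcripts only, single lanes, controls of 1 number series, the shallow library and each library left out. Leaving out replicates 2 and 5 of the Atr-deleted p53 libraries together, and the number series as a block in that background, were chosen after seeing the data. Promoters came from RefSeq, 1 start per gene, the one farthest upstream. Figures used Python 3.11.15 and matplotlib 3.10.9.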

Additional observations from a re-analysis of the deposited data

Results flagged for a closer look

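In 105 checks of a gene within a group of 4 or 5 libraries, 5 single libraries lay far from the rest of their group, where chance gives about 1 in 20. Wdhd1 was at 19.4 CPM in replicate 2 of the Atr-deleted Bax/Bak libraries and at 3.81 to 7.07 CPM in the others. Rfc4 was at 37.3 CPM in replicate 4 of the Bax/Bak controls, against 32.3 to 32.9 CPM. Replicate 2 of the Atr-deleted p53 libraries accounted for the remaining 3: Rfc1 at 62.4 CPM against 94.4 to 100.1 CPM, Cdc45 at 20.03 CPM against 24.96 to 25.1 CPM, and Chaf1a at 25.8 CPM against 40.1 to 42.0 CPM.

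The Atr effect differed between the backgrounds for 24 genes by the test of the difference itself, on the log2 scale and always toward a stronger fall in the Bax/Bak background. For primase and polymerase alpha the differences were -0.69 for Pola1, -0.40 for Pola2, -1.12 for Prim1 and -0.42 for Prim2. The polymerase subunits Pold3 and Pole2 differed by -0.61 and -0.95. For the clamp they were -1.19 for Pcna and -2.16 for Pclaf. Clamp loader genes differed by -0.30 for Rfc2, -0.56 for Rfc3, -0.85 for Rfc4 and -0.53 for Rfc5. Helicase cofactors differed by -0.93 for Gins1, -0.46 for Gins2, -0.69 for Gins3, -0.66 for Gins4, -0.91 for Cdc45 and -0.67 for Mcm10. Rpa2 and Rpa3 differed by -0.43 and -0.999, and Tipin by -0.68. Among chromatin genes the values were -0.62 for Chaf1a, -0.58 for Chaf1b and -0.90 for Hells.

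The shallow library, outside every comparison, had 0.171% of its counts in the 35 genes, within the range of the other p53 libraries.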

How the results depend on the processing

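Under every alternative run, 34 of the 35 genes were called lower in the Bax/Bak background, with medians from -0.78 to -0.65, and 0 were called in the p53 background. The difference between backgrounds was called for 17 to 31 genes when 1 library was left out and 21 to 28 under other settings. Over all genes, calls in the same direction ran from 769 to 1957 when 1 library was left out. Between controls, the count of 10 became 6 with no filter on low counts, and 4 to 13 with a library left out. The 16 partner ratios in the Bax/Bak background became 13 with protein-coding transcripts only and 0 to 15 with a library left out, with 0 only without replicate 5 of the Atr-deleted libraries, where 13 pairs reached the smallest p and 14 were needed. The Gins2 to Gins1 ratio turned from 0.63 to -0.0025 with protein-coding transcripts only. In the Bax/Bak background, median-of-ratios scaling gave 4063 genes lower and 3602 higher over all genes and upper-quartile scaling 3581 and 4295, against 3830 and 3926.

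No paired analysis was made, because the labels give no pairing of libraries. Replicate numbers follow the accession order and pair nothing. The number series of the titles is shared between genotypes in the p53 background alone, where 1 control has the series of the Atr-deleted libraries; with that series as a block, an alternative chosen after seeing the data, 0 of the 35 genes were called and the median was -0.08. Counting error is small at these depths; the intervals given for the p53 background show what its libraries leave undecided.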
